A study of Mus musculus with 2 samples.

Results

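The cytochrome P450 genes outside steroid synthesis were taken as all protein-coding genes with a symbol of Cyp, a number, letters and a number. Left out were Cyp11a1, Cyp11b1, Cyp11b2, Cyp17a1 and Cyp21a1, 5 P450 genes of steroid hormone synthesis. Symbols that end in a letter, such as Cyp3a41a, do not match, so subfamily counts and sums cover matching genes only. The rule found 89 genes, of 94 P450 genes with such a symbol, 22028 protein-coding genes and 55536 genes in all. They were measured by total RNA sequencing in adrenal glands of 2 female mice, 18 to 20 months old and with no treatment named, of strain B6CASTF1/J, the first generation of a cross of C57BL/6J with CAST/EiJ. With 1 library per animal and no second group, no comparison of conditions and no p-value were possible, and values are given for animal 1 and animal 2 in that order. The labels number the libraries as separate biological replicates and name 2 different females among the sample characteristics. Against this, they give both libraries the same donor identifier, and another field of animal 2 repeats the name of animal 1, so that the spread between the libraries may be partly technical. Both glands are whole-organ samples of a hybrid, quantified on the reference of one parent strain. The effect of CAST/EiJ alleles on the values was not tested.

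Cytochrome P450 enzymes hold a heme whose iron is bound by a cysteine of the protein and use oxygen to oxidise their substrates. Members of the families named with 1, 2, 3 and 4 mostly act on drugs, other foreign compounds and fatty acids, and are best known from liver, lung and kidney, whereas other families act on sterols, bile acids, vitamin D or retinoic acid. Most sit in the endoplasmic reticulum and receive electrons from P450 reductase, and a few sit in mitochondria and receive them from ferredoxin.

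The stretch around the heme-binding cysteine is alike in most of these enzymes, and its coding bases can be set side by side. A motif of 10 residues was searched in the translated coding sequence of 1 transcript per gene (GENCODE M21, mouse assembly mm10): phenylalanine, any pair of residues, glycine, any residue, arginine, any residue, cysteine, any residue and glycine. It was present once in 82 of the 89 genes. The 30 coding bases are given 5′ to 3′ on the strand of the gene, with the codon of the cysteine in capitals, for the genes on which the results turn.
Cyp2f2: ttttcggctggacgtcgactgTGTctggga
Cyp2e1: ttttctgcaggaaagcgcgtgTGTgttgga
Cyp2d22: ttctcagcaggccgcagatcaTGCctgggg
Cyp2b10: ttctcaacaggaaagcgcattTGTcttggt
Cyp4f13: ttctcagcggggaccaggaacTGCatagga
Cyp4f18: ttctcggctgggcccaggaacTGCatagga
Cyp4f15: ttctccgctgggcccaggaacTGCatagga
Cyp1b1: ttctcagtgggcaaacggaggTGCatcggt
Cyp27a1: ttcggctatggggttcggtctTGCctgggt
Cyp26b1: tttggcggtggcgtgcggaccTGCctgggc

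The stretch of Cyp2f2, the most abundant gene, had 22 of 30 bases in common with that of Cyp4v3 of family 4, and 21 with that of Cyp2e1. It had 19 in common with Cyp2d22 and Cyp4f17, 18 with Cyp2b10 and Cyp4f18, and 15 with Cyp4f13, Cyp1b1 and Cyp27a1. A part of these bases was alike by construction, since the search required the same residues at fixed places in every gene. The cysteine was coded by TGC in 49 genes and by TGT in 33. In 65 of the 82 genes an exon junction divided these bases, at a place that went with the family. All 48 genes of family 2 with the motif had 10 of the 30 bases before the junction. In family 4, 16 genes had 17 bases before it and the other, Cyp4v3, had 28. The other 17 genes, among them Cyp1b1, Cyp27a1, Cyp26b1 and 6 genes of the Cyp3a subfamily, had the whole stretch in 1 exon. For Cyp2f2 (chr7, plus strand) the bases lay in exons 9 and 10 of 10, between chr7:27132606-27133235 with the intron included. For Cyp1b1 (minus strand) they lay in the last of 3 exons at chr17:79710309-79710338. The motif was missing from the chosen transcripts of Cyp20a1 and Cyp7b1 and of 5 genes at or below the limit of detection, Cyp2s1, Cyp39a1, Cyp8b1, Cyp7a1 and Cyp3a59. When the arginine was not required, it was present in Cyp7b1, Cyp39a1 and Cyp7a1. Among the genes with a TPM (a level per transcript length, scaled to a fixed total) of at least 1 in both animals, the coding sequences had 462 to 543 codons.

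Few of the genes were detected, and a pair of them held most of the level. A TPM of at least 1 in both animals was reached by 18 of the 89 genes (20.2%), against 52.4% of all protein-coding genes. Of the other 71 genes, 46 were below a TPM of 0.1 in both animals. An expected count of 0 was listed in both libraries for 11 genes and in 1 library for 18, and 0 reads still allow up to 3 counts in a library. The 18 detected genes had a median TPM of 6.17, against 9.82 for all detected protein-coding genes. The TPM of all 89 genes summed to 396 and 360, a mean of 378 ± 25.4 (SD, n = 2), or 0.0396% and 0.0360% of all TPM. The 5 P450 genes of steroid synthesis summed to 8725 and 9372, which was 22.0-fold and 26.01-fold more. Cyp17a1 gave only 0.10 and 0.64 of these sums, from 4 and 39 counts, and was not detected. Cyp2f2 alone held 51.7% and 40.9% of the sum of the 89 genes, and Cyp2f2 with Cyp2e1 held 72.3% and 67.4%. The 71 genes below the limit together held a TPM of 8.39 and 9.12.

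**Figure D1:**
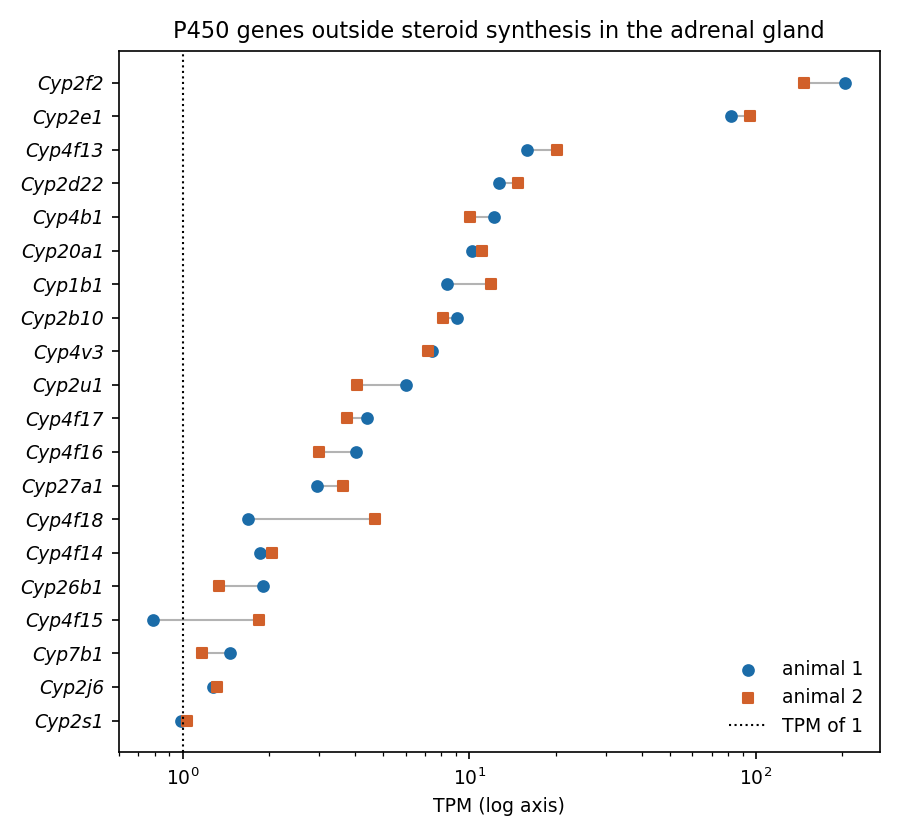
TPM (log axis) of the 18 detected genes and the 2 genes just below the limit in animal 1 (circles) and animal 2 (squares), with the limit of 1 dotted. Cyp2f2 at 205 and 147 and Cyp2e1 at 81.8 and 95.6 lie apart from all others, which stay at or below 20.3, and Cyp4f18 and Cyp4f15 show the widest gaps between the animals.

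Ordered by mean TPM, the genes were separated at the top and less so below. Cyp2f2, Cyp2e1, Cyp4f13 and Cyp2d22 each lay above the next gene with no overlap of the 2 printed TPM values. The steps below Cyp4f13 and Cyp2d22 were not kept in the other deposited table. In this second quantification Cyp4f13 (23.6 and 33.6) overlapped Cyp2d22 (21.5 and 27.1), and Cyp2d22 lay below Cyp4b1 (22.6) in animal 1. Cyp4b1, Cyp20a1, Cyp1b1 and Cyp2b10 overlapped from neighbour to neighbour. Cyp2b10, Cyp4v3 and Cyp2u1 did not overlap, although Cyp2b10 and Cyp4v3 came to 11.60 and 11.68 in animal 2 in the second quantification. From Cyp2u1 down to Cyp2j6 every gene overlapped the next. By leading coding transcript alone, the steps below Cyp4f13 and Cyp2d22 were not kept either. Cyp4f13-201 had a TPM of 8.67 and 9.64, Cyp2d22-201 of 8.63 and 8.71, and Cyp4b1-201 of 11.53 and 9.49.

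Family 2, whose members oxidise foreign compounds and polyunsaturated fatty acids, supplied the most abundant genes. Cyp2f2 (ENSMUSG00000052974.8, chr7:27119909-27133660), best known from the club cells of the mouse lung, where it activates naphthalene, had a TPM of 204.74 and 147.37, from 13954 and 9109 expected counts. It ranked 257th among protein-coding genes by mean TPM. The secretory genes of club cells, Scgb1a1 and Scgb3a2, had counts of 0 in both glands, while Sftpc, the third lung gene listed, known from alveolar cells, had a TPM of 1.04 and 2.52, from 28 and 62 counts. Cyp2e1 (ENSMUSG00000025479.9, chr7:140763739-140774987), which oxidises ethanol and other small molecules, had a TPM of 81.80 and 95.57. Cyp2f2 was above Cyp2e1 in both animals, by 2.50-fold in animal 1 and 1.54-fold in animal 2. Of the transcripts, Cyp2f2-201 took 98.9% and 97.9% of the TPM of Cyp2f2, and Cyp2e1-201 took 80.3% and 80.7% of that of Cyp2e1, so that both were read as coding RNA.

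Cyp2d22, a member of the drug-metabolising Cyp2d subfamily, had a TPM of 12.65 and 14.74, and the 7 other Cyp2d genes brought the subfamily to 13.4 and 15.3. The 30 bases shown for it were the same in Cyp2d9 and Cyp2d26. Cyp2b10, in liver a target of the nuclear receptor encoded by Nr1i3, had a TPM of 9.08 and 8.09. Of this, 100% and 98.6% was assigned to the transcript Cyp2b10-202 of 491 codons, which has the motif. Cyp2b10-201, of 500 codons and without the motif, was at 0 in both. Cyp2u1, a hydroxylase of long-chain fatty acids, had a TPM of 6.04 and 4.06, and Cyp2j6, of a subfamily that oxidises arachidonic acid, 1.28 and 1.32. Cyp2s1 lay at the limit with 0.99 and 1.04.

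Other subfamilies of family 2 were near 0. The 15 Cyp2c genes, major drug-metabolising enzymes of liver, summed to a TPM of 0.81 and 0.96 and none was detected; the highest was Cyp2c23 at 0.20 and 0.36. The 4 Cyp2a genes summed to 0.88 and 0.95, with Cyp2a5 the highest at 0.40 and 0.38. Cyp2ab1 had 3 and 2 counts, Cyp2g1 had 0 and 1, and Cyp2t4 and Cyp2w1 had none in either library. The 7 Cyp3a genes, the other large drug-metabolising group of liver, summed to 0.23 and 0.29, led by Cyp3a25 with 8 and 4 counts.

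**Figure D2:**
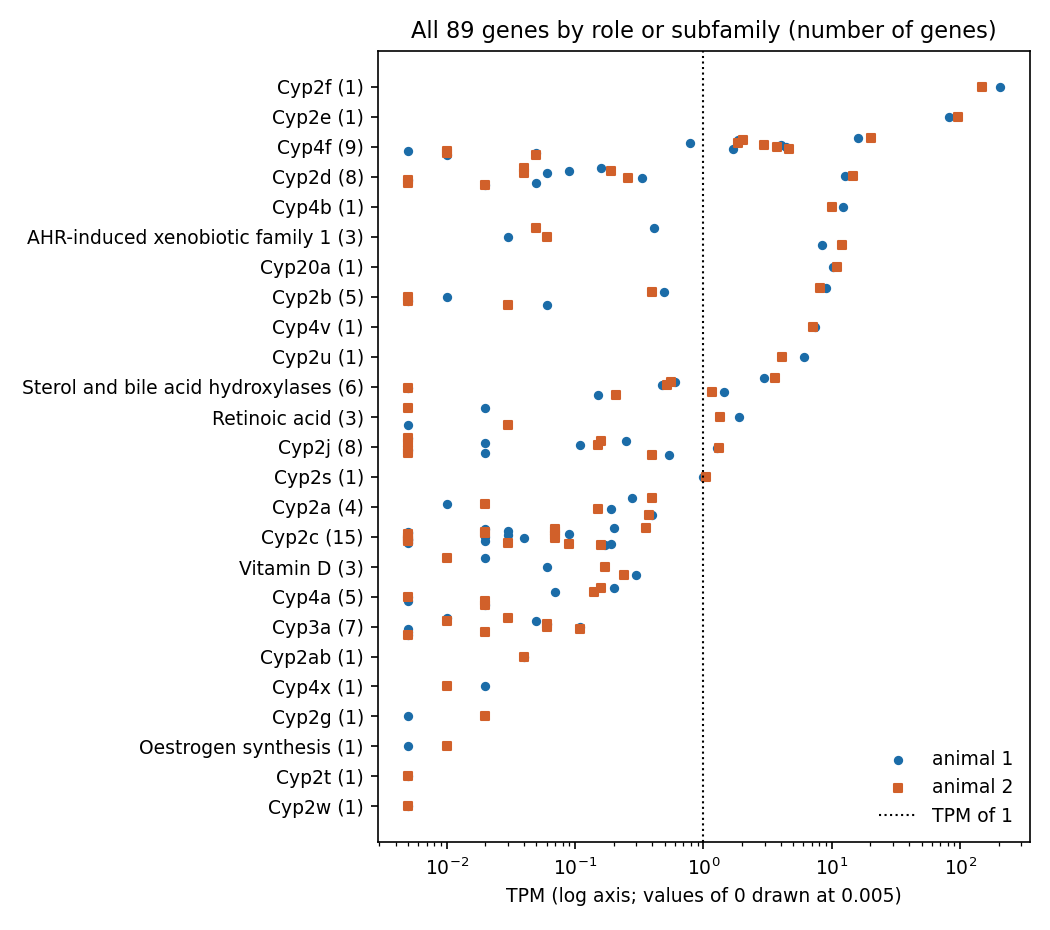
TPM (log axis, values of 0 drawn at 0.005) of all 89 genes in animal 1 (circles) and animal 2 (squares), 1 row per role or subfamily with the number of genes in brackets and the limit of 1 dotted. The 15 Cyp2c and 7 Cyp3a genes all lie below the limit, and most rows with a detected gene hold only 1 of them.

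Family 1 holds the genes induced through the aryl hydrocarbon receptor. Cyp1b1 (ENSMUSG00000024087.4, chr17:79701537-79715061), which also hydroxylates oestradiol, had a TPM of 8.35 and 11.93, from 1493 and 1926 counts. Cyp1a1 had 0.41 and 0.05, from 40 and 5 counts, and Cyp1a2 had 2 and 4 counts. Within the family Cyp1b1 was thus the gene with nearly all of the level in both animals.

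Family 4, whose members hydroxylate fatty acids and leukotrienes at the end of the chain, had the largest number of detected genes in 1 subfamily. Of 9 Cyp4f genes 5 were detected, a share close to the 52.4% of all protein-coding genes, and the subfamily summed to a TPM of 28.7 and 35.7. Cyp4f13 led with 15.89 and 20.30. Cyp4f17 had 4.40 and 3.74, Cyp4f16 had 4.03 and 2.98, Cyp4f18 had 1.69 and 4.68, and Cyp4f14 had 1.86 and 2.05. These values show Cyp4f13 as high in both animals, while the others stayed below 5. Outside the subfamily, Cyp4b1, which also activates furan compounds, had 12.15 and 10.04, and Cyp4v3, the counterpart of a human gene mutated in a retinal dystrophy, had 7.41 and 7.16. The 5 Cyp4a genes, known in liver as targets of the receptor encoded by Ppara, summed to 0.29 and 0.34, with Cyp4a10 the highest at 0.20 and 0.16. Cyp4x1 had 2 counts in each library.

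Of the 6 sterol and bile acid hydroxylases, the detected ones were Cyp27a1, a mitochondrial enzyme that oxidises the side chain of cholesterol, at a TPM of 2.95 and 3.63, and Cyp7b1, which hydroxylates oxysterols and dehydroepiandrosterone, at 1.46 and 1.17. Cyp39a1, which acts on an oxysterol, had 0.60 and 0.56, and Cyp46a1, the cholesterol hydroxylase of neurons, 0.48 and 0.52. Cyp8b1 had 11 and 14 counts, and Cyp7a1, the rate-limiting enzyme of bile acid synthesis in liver, had 0 in both. Of the retinoic acid hydroxylases, Cyp26b1 had a TPM of 1.90 and 1.34, while Cyp26a1 had 1 and 0 counts and Cyp26c1 had 0 and 2. The vitamin D genes were below the limit, with Cyp2r1 at 0.30 and 0.24, Cyp27b1 at 5 and 14 counts and Cyp24a1 at 3 and 1. Cyp19a1, the aromatase that makes oestrogens, had 0 and 1 counts. Cyp20a1, an enzyme of unknown substrate, had a TPM of 10.22 and 11.07, close between the animals.

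Most of the genes lie in clusters on a few chromosomes. Genes were joined to a cluster when the next of the 89 lay within 500 kb, which placed 68 genes in 9 clusters and left 21 alone. In the clusters 9 of 68 genes were detected (13.2%), and of the genes alone 9 of 21 (42.9%). The cluster of 8 Cyp4f genes at chr17:32452723-32947402 had 4 detected genes, Cyp4f17, Cyp4f16, Cyp4f14 and Cyp4f13, a share close to the 52.4% of all protein-coding genes. The cluster of 13 genes at chr7:25802475-27158668 had Cyp2b10 and Cyp2f2, with 9 undetected genes between them. The clusters of Cyp2d genes (chr15:82370527-82794294), Cyp2j genes (chr4:96027534-96664154) and Cyp4a with Cyp4x1 and Cyp4b1 (chr4:115106323-115647723) had 1 each. The 14 Cyp2c genes at chr19:39007019-40187333 and the 6 Cyp3a genes at chr5:145345279-146113287 had none.

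**Figure D3:**
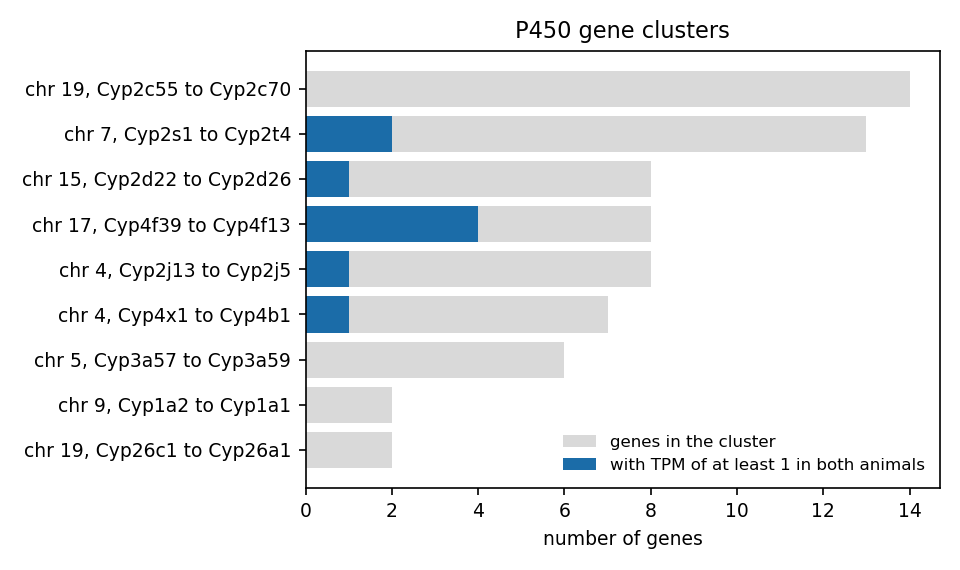
Number of genes (x axis) in each of the 9 clusters, named by chromosome and the first and last gene, with the part that reached a TPM of at least 1 in both animals in blue. The chromosome 17 cluster had 4 of 8 detected, the chromosome 7 cluster 2 of 13, and the Cyp2c cluster 0 of 14.

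Genes of a cluster are similar copies, and reads that fit several copies were divided among them by the quantification. The share of a gene's stretches of 50 bases that also occurred in a transcript of another gene was 0 for Cyp2f2, Cyp1b1, Cyp27a1, Cyp26b1 and Cyp7b1. It was 3.87% for Cyp2e1, 8.70% for Cyp2b10 and at most 17.4% among the detected genes, for Cyp4f16, which shared most with Cyp4f37. Over the detected genes the median share was 2.49%, and over the others 5.11%. More than 50% was shared by 3 genes, Cyp2c40, Cyp2c67 and Cyp2c69, whose single values are therefore uncertain. Coding sequences of the 5 detected Cyp4f genes and Cyp4f15 were 76.3% (Cyp4f17 with Cyp4f18) to 84.3% (Cyp4f16 with Cyp4f17) identical where aligned. Cyp4f18 and Cyp4f15 shared 0.378% and 2.28% of their stretches with other genes.

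Most genes with enough counts were less than 2-fold apart between the animals. A gene was counted as 2-fold apart when 3 conditions were met: a mean count of 50 or more, TMM-scaled expected counts that differed 2-fold or more, and no overlap of the TPM intervals deposited for the libraries. This held for 2 of 21 genes with that mean count (9.52%), against 3.46% of all genes, and both were higher in animal 2, against 1.71% of all genes. The intervals alone did not overlap for 8 of 21 genes (38.1%), against 33.1% of all genes, which is near that background, and the 8 were 4 in each direction. Those higher in animal 1 were Cyp2f2, Cyp4b1, Cyp2u1 and Cyp26b1, and those higher in animal 2 were Cyp2e1, Cyp1b1, Cyp4f18 and Cyp4f15. In whole glands, fewer cells of a type and less RNA per cell cannot be told apart in such differences.

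Cyp4f18 (ENSMUSG00000003484.4, chr8:71988482-72009626), known as a leukotriene hydroxylase of neutrophils and other myeloid cells, had 94 and 231 counts and a TPM of 1.69 and 4.68. Its deposited TPM intervals ran from 1.42 to 2.41 in animal 1 and from 4.01 to 5.80 in animal 2, and its log2 ratio of animal 2 over animal 1 was 1.38. Macrophage markers (C1qa, Cd68, Lyz2 and Adgre1) summed to a TPM of 74.6 and 82.8. By TMM-scaled counts 3 of 4 were higher in animal 2, but only C1qa had TPM intervals that did not overlap. Adgre1, 1 of the 3, had a lower TPM in animal 2 (2.74 and 1.80). The part of these markers in the difference was not tested. Zfp961, which overlaps Cyp4f18 on the opposite strand, had a TPM of 6.83 and 6.38, and its part was not tested either.

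Cyp4f15 (ENSMUSG00000073424.9, chr17:32685627-32703352) had 53 and 121 counts and a TPM of 0.79 and 1.85, with intervals from 0.65 to 1.44 and from 1.60 to 2.56. Its log2 ratio was 1.27. It belongs to the chromosome 17 cluster, from which Cyp4f18 lies apart on chromosome 8, and the other detected Cyp4f genes had smaller ratios: Cyp4f13 had a log2 ratio of 0.23, Cyp4f14 of 0.17, Cyp4f16 of -0.16 and Cyp4f17 of -0.62. Cyp1a1, picked out after its values were seen and below the count limit, had a log2 ratio of -2.80 on its 40 and 5 counts.

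**Figure D4:**
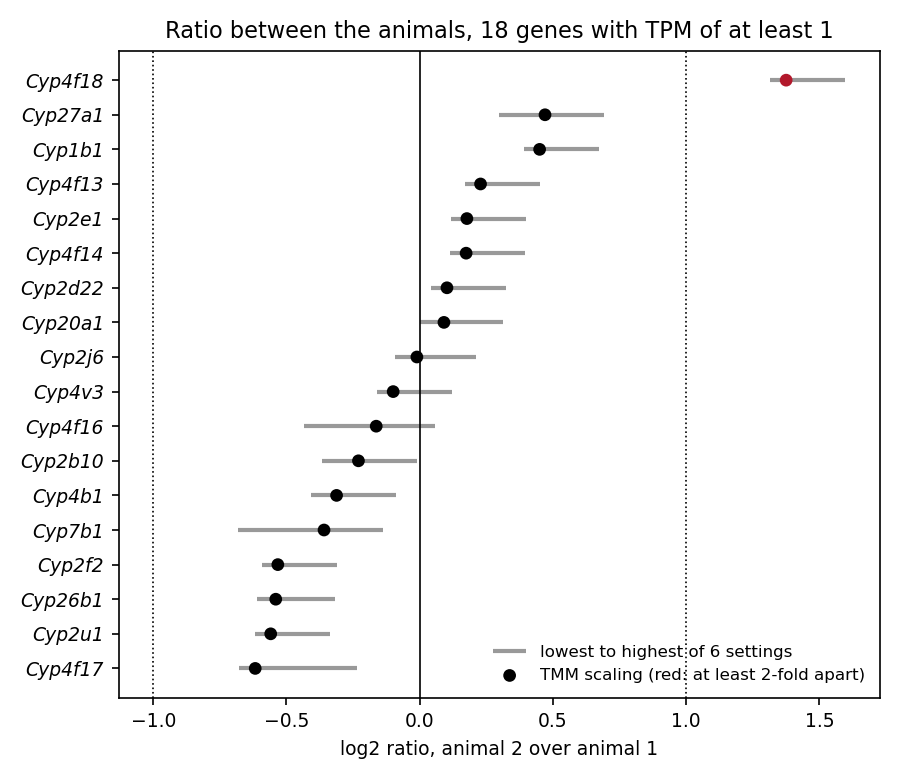
Log2 ratio of animal 2 over animal 1 for the 18 detected genes with TMM scaling (points; red at least 2-fold apart) and the range over 6 settings of scaling and quantification (bars), with a 2-fold ratio dotted. Cyp4f18 at 1.38 is the only detected gene beyond a 2-fold ratio, and 3 genes (Cyp4v3, Cyp4f16 and Cyp2j6) have bars that cross 0.

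Among the 2 most abundant genes the directions were opposite. Cyp2f2 had a log2 ratio of -0.53, or 1.45-fold more in animal 1, and Cyp2e1 of 0.18. Cyp2u1 (-0.56), Cyp4f17 (-0.62) and Cyp26b1 (-0.54) were also higher in animal 1, and Cyp27a1 (0.47) and Cyp1b1 (0.45) in animal 2. With TMM scaling 10 of the 18 detected genes were higher in animal 1 and 8 in animal 2. Scaling to the spike-ins, which moved the median log2 ratio of all genes from -0.01 to 0.21, made 11 of 18 higher in animal 2. The direction was the same under all 6 settings for 15 genes, 8 higher in animal 2 and 7 in animal 1, and not for Cyp4v3, Cyp4f16 and Cyp2j6. Over the 36 genes whose mean count reached 10 the median was -0.11, with 21 higher in animal 1, beside a median of -0.01 over 17024 genes.

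The libraries had 35769717 and 35135703 expected counts. Markers of the cortex (Star, Hsd3b1, Nr5a1 and Mc2r) summed to a TPM of 7144 and 10901 and those of chromaffin cells to 1204 and 956, so that the labelled tissue was present in both. Markers of other tissues differed between the samples: adipocyte markers summed to 2549 and 1433 (6 of 6 higher in animal 1), hepatocyte markers to 20.4 and 8.67 (6 of 6 higher in animal 1, with Alb at 11.25 and 3.45), striated muscle markers to 133 and 0.34, and smooth muscle markers to 78.6 and 41.8. Capsule and fibroblast markers summed to 96.8 and 83.6, endothelial markers to 101 and 110, and kidney tubule markers to 1.32 and 1.69. Akr1c18, a gene of the X-zone of the female mouse cortex, had 116 and 1034, and Pik3c2g, also of that zone, 1.52 and 13.2. Cyp2f2, Cyp4b1, Cyp2u1 and Cyp26b1 were higher in the same animal as the adipocyte, hepatocyte and muscle markers and as the gland's own chromaffin markers (4 of 4) and capsule and fibroblast markers (4 of 4), whose part in these differences was not tested. Cyp2e1, Cyp1b1, Cyp4f18 and Cyp4f15 were higher in the same animal as 2 of 2 X-zone markers and 3 of 4 cortex markers, and the part of these was not tested either. Of the cortex genes, Mc2r (116 and 106) and, among the P450 genes of steroid synthesis, Cyp11a1, Cyp11b1 and Cyp11b2 went the other way and had a higher TPM in animal 1.

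The transcripts behind the gene values were not all coding. In total RNA, unspliced and partly spliced transcripts are read too. Nearly the whole TPM of Cyp2f2 (99.5% and 98.6%), Cyp2e1 (99.3% and 99.5%), Cyp2b10 (100% and 98.6%) and Cyp1b1 (100% and 99.3%) was in transcripts annotated as coding. The share was 57.9% and 47.5% for Cyp4f13, which has 14 annotated transcripts, 68.2% and 59.1% for Cyp2d22 and 61.4% and 57.8% for Cyp20a1. It was 71.2% and 90.6% for Cyp27a1 and 31.5% and 54.4% for Cyp4f16. TPM is per length, so short transcripts with few counts can weigh heavily in these shares. A retained-intron transcript of Cyp2d22, of 375 bases, took 21.25% and 20.49% of the TPM on 28.84 and 29.59 counts. Another, of Cyp4f13 and 424 bases, took 19.41% and 23.11% on 38.98 and 54.1. The coding transcript Cyp2d22-201 had 896 and 825 of 1028 and 1042 expected counts, and Cyp4f13-201 had 557 and 565 of 753 and 833. These parts were larger than by TPM. For Cyp4f14, Cyp26b1, Cyp4f16 and Cyp4f17 the transcript with the largest assigned share of TPM differed between the animals. By expected counts, which are not per length, the leading transcript of Cyp4f16 and of Cyp4f17 was the same in both animals. Cyp4f16-201 had 76.1 and 122 counts, and Cyp4f17-204, of 2940 bases, had 212 and 124. Cyp4f17-202, of 650 bases, had 36.9 and 44.5. Cyp4f14-204 took 96.8% of the gene in animal 1 and 0 in animal 2, where 2 other coding transcripts took 59.0% and 41.0%. Cyp26b1-205 took 59.4% and 40.6%, and Cyp26b1-204 the rest. The counts behind these shares were 136 for Cyp4f14-204 in animal 1, and 82.9 and 63.1 for the 2 other transcripts of Cyp4f14 in animal 2.

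Of 11 listed symbols of electron donors and heme proteins that work with P450 enzymes, 10 were in the tables. These 10 were detected. By TMM-scaled counts 5 were higher in each animal, with Fdxr higher in animal 1 (log2 ratio of -0.15) although its TPM was nearly equal. Por, the reductase of the endoplasmic reticulum, had a TPM of 105 and 94.9. The cytochrome b5 genes Cyb5a and Cyb5b had 141 and 166, and 160 and 149, and their reductases Cyb5r3 and Cyb5r1 134 and 106, and 12.5 and 17.4. None of these was 2-fold apart. For the mitochondrial enzymes such as Cyp27a1, Fdxr, the ferredoxin reductase, had 404 and 405, and Fdx1, the ferredoxin that also serves steroid synthesis, 378 and 1004. Fdx1 was the only one of the 10 to be 2-fold apart, with a log2 ratio of 1.44. Fdx1l, a second ferredoxin, had 11.99 and 11.56. Pgrmc1, a heme protein that binds P450 enzymes, had 148 and 176, and Pgrmc2 had 18.0 and 19.0.

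Of 12 listed regulators 7 were detected and none was 2-fold apart. Ahr, the receptor that induces family 1, had a TPM of 0.89 and 1.01, its partner Arnt 13.7 and 18.3, and its repressor Ahrr 0.92 and 0.77. The receptors that induce Cyp3a and Cyp2b genes in liver were near 0, Nr1i2 at 0.01 and 0.01 and Nr1i3 at 0 and 0.03, and their partner Rxra had 14.1 and 15.9. The liver factor Hnf4a had 0.15 and 0.22. Ppara had 9.37 and 9.32, the bile acid receptor Nr1h4 5.53 and 5.19, the oxysterol receptor Nr1h3 12.3 and 6.70, the vitamin D receptor Vdr 3.18 and 1.89, and Nfe2l2, which induces antioxidant genes, 28.7 and 34.9. The samples, which also held adipocyte markers, had RNA of Ppara beside little of the Cyp4a genes that match the rule. They had RNA of Cyp2b10 beside little of Nr1i3. Whether these RNAs came from the same cells, and any relation between them, was not tested.

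Among the epoxide hydrolases, which open the epoxides that P450 enzymes make, Ephx1 had a TPM of 95.5 and 68.7 and Ephx2 29.5 and 21.4, whereas Ephx3 had 0.16 and 0 and Ephx4 0.32 and 0.35. Of the P450 genes whose symbols fall outside the rule, the 3 listed were detected: Cyp51, of cholesterol synthesis, had 17.3 and 24.1, Ptgis, the prostacyclin synthase, 7.18 and 5.83, and Tbxas1, the thromboxane synthase, 1.84 and 2.00.

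**Figure D5:**
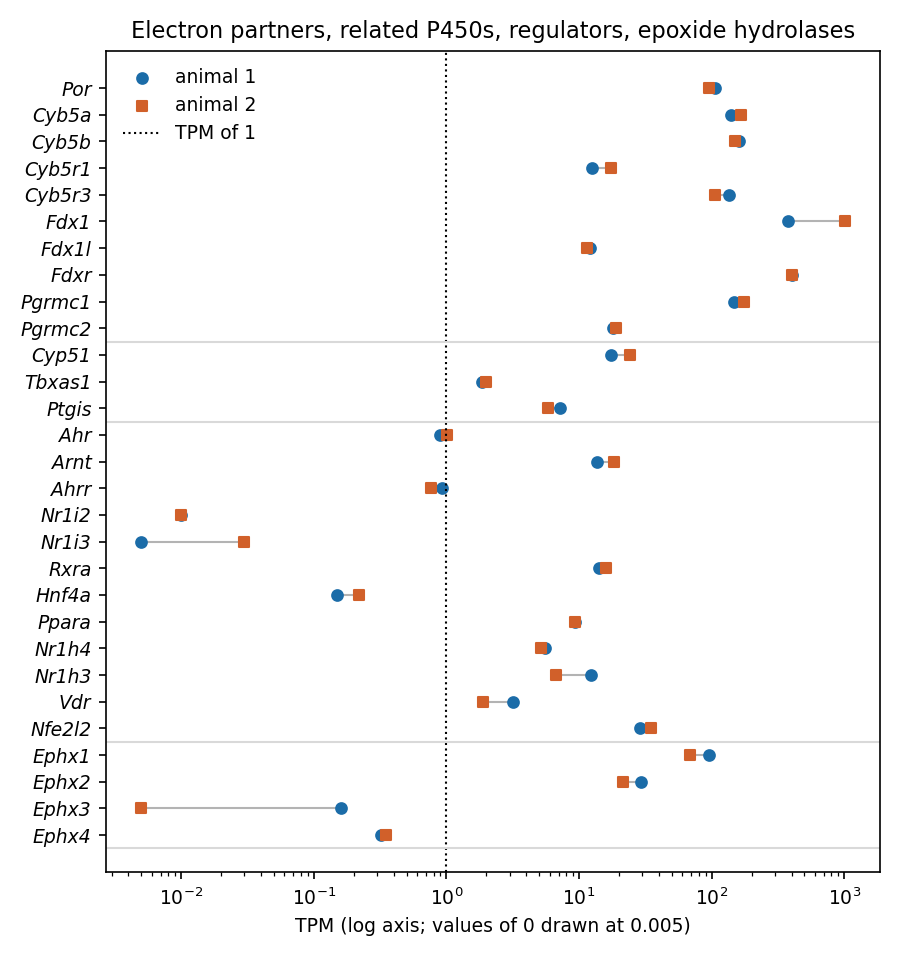
TPM (log axis, values of 0 drawn at 0.005) in animal 1 (circles) and animal 2 (squares) of the electron and heme partners, the 3 listed P450 genes with other symbols, the regulators and the epoxide hydrolases, from top to bottom, with the limit of 1 dotted. All 10 partners lie above the limit and Fdx1 has the widest gap among them, at 378 and 1004, while Nr1i2 and Nr1i3 lie near 0.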

How the data were processed

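Per the file headers, the authors deposited, for each library, gene and transcript tables with expected counts (estimated reads per feature), TPM and, for transcripts, the percent of the gene's TPM. A second deposited transcript table with estimated counts and TPM served as an alternative. Per the labels, 300 ng of RNA with reduced ribosomal RNA and ERCC spike-ins went into stranded libraries and the assembly was mm10. For the programs and the level of the TPM intervals, the sources used here name none.

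The genes and lists were chosen with earlier results of these data known. Genes named were all members detected in both libraries (TPM of 1 or more) or 2-fold apart, otherwise the highest of each role or subfamily, the 2 members on each side of the limit, the 5 furthest apart between the quantifications among members with a mean TPM of 1 or more in either, and all partners and regulators. Further members are given only as values.

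Expected counts were rounded, 0.5 was added and TMM scaling from edgeR 4.0.16 (R 4.3.3) was applied, and the script was tested on simulated data. DESeq2 1.42.0 size factors were an alternative. The motif was searched in translated GENCODE M21 coding sequences in place of RefSeq proteins, in the coding transcript of highest mean TPM among those with at least 0.8 of the gene's longest coding sequence. Without molecular identifiers reads may repeat a molecule, so the limit of 3 counts covers counting error only.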

Additional observations from a re-analysis of the deposited data

How the results depend on the processing

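The number of detected genes was 18, and 32 when an expected count of at least 10 in both libraries was required instead. Other settings gave 13 to 25, and it was 18 with animal 1 alone and 20 with animal 2 alone. The summed TPM of 378 was 647 in the second quantification and 1255 over nuclear protein-coding genes. It was 396 in animal 1 alone and 360 in animal 2 alone. The share of the 5 highest genes was 81.5% by TPM and 78.8% by expected counts, which are not per length. The median log2 ratio of -0.11 changed sign to 0.11 with spike-in totals and to 0.0074 with no minimum count. By construction, spike-in totals move every gene alike (the median of all genes to 0.21), and with no minimum the genes with 0 counts in both libraries enter at 0.08. The 2 genes at least 2-fold apart, Cyp4f18 and Cyp4f15, were found under every scaling and in the second quantification, and Cyp1a1 was added when the mean count minimum was 10 or absent. Among genes with a mean TPM of 1 or more in either quantification, those furthest from the median shift of 0.79 between the quantifications, on the scale of log2 (TPM + 1), were Cyp7b1 (-0.39), Cyp4f16 (-0.38), Cyp2j6 (-0.35), Cyp46a1 (-0.25) and Cyp4f15 (-0.23). Adding 1 makes the shift of genes with a low TPM smaller, so the negative values of such genes depend on this scale. The mean TPM was 0.50 and, in the second quantification, 1.18 for Cyp46a1, and 1.32 and 2.41 for Cyp4f15. The printed TPM lay outside its own deposited interval for 28 and 29 of the 89 genes, and among detected genes for Cyp4f16 in animal 2 alone. No ratio is possible without either library, and no paired analysis was possible because there is 1 group.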
